A study of Mus musculus with 2 samples.

Results

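Cadherins and protocadherins are calcium-dependent adhesion proteins of the cell surface. Their genes were followed here through the cell types of the mouse retina with and without Ptbp1, with libraries named in the order Ptbp1-Ctrl and Ptbp1-KO throughout. Genes were taken by name alone: every symbol made of Cdh or Pcdh and a number, and every symbol that starts with Pcdha, Pcdhb or Pcdhg. This gave 92 genes out of the 25778 in the count table. Of these, 57 belong to the clustered protocadherins (14 alpha, 22 beta and 21 gamma genes), and 35 do not. The 35 are 5 type I and 13 type II classical cadherins, 2 tip-link cadherins (Cdh23 and Pcdh15), 4 delta-1 and 5 delta-2 protocadherins, 2 further protocadherins (Pcdh12 and Pcdh20) and 4 other Cdh genes (Cdh13, Cdh16, Cdh17 and Cdh26).

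The study asked whether retinal progenitors need Ptbp1, a protein that binds RNA and keeps neuronal exons from being spliced in, to form a normal retina. Droplet single-cell RNA sequencing of transcript 3′ ends was carried out on 1 library of Ptbp1-Ctrl (genotype Chx10Cre) and 1 of Ptbp1-KO (genotype Chx10-Cre;Ptbp1lox/lox), from mice aged 30 days, with 1 animal per genotype. The Chx10-Cre transgene, which both genotypes carry, drives Cre recombinase in retinal progenitors, and the lox sites flank the promoter and the first exon of Ptbp1. According to the methods of the study the animals were female, but Xist, which is made by cells with an inactive X chromosome, had only 5 and 6 unique molecular identifiers (UMIs) in Ptbp1-Ctrl and Ptbp1-KO, and the Y-linked Ddx3y had 2891 and 3481. With 1 library per genotype no test between genotypes was possible, and effects of genotype, animal, dissociation and library cannot be told apart. All intervals given are exact 95% intervals that cover counting error only.

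There were 16421 cells and 32758836 UMIs in Ptbp1-Ctrl, and 14522 cells and 35328593 UMIs in Ptbp1-KO, with 63 cell barcodes found in both. Cells were grouped into the types that the authors deposited, and the summed UMIs of a type ranged from 1425527 in cones of Ptbp1-KO to 14494233 in rods of Ptbp1-KO over the 5 types compared. Median UMIs per cell were higher in Ptbp1-KO in each of these, as in Müller glia with 3333 and 4178. Ptbp1 had 294 and 6 UMIs in Müller glia and 255 and 4 in rods, although 3′ reads lie outside the deleted part. Among the 5 types the fixed rod, cone, bipolar, amacrine and Müller glial marker lists were each highest in their own type. Rod RNA was present in every type, and in Müller glia the median level of the 4 rod genes Gnat1, Pde6b, Cnga1 and Nrl was 16.2% and 13.4% of that in rods.

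Classical cadherins bind the same cadherin on the neighbouring cell and hold on to actin through catenins. In the retina, type II cadherins such as Cdh8 and Cdh9 are known for guiding the axons of different cone bipolar cell types to their own layers. Delta-protocadherins adhere more weakly and several of them recruit the actin-regulating WAVE complex. Clustered protocadherins give single neurons a surface identity used in self-avoidance, because each neuron picks a few of the alternative first exons, and in the alpha and gamma clusters each of these is spliced to the same constant exons. Cdh23 and Pcdh15 form the tip links of inner ear hair cells, and mutations in either cause Usher syndrome, which also affects photoreceptors.

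Of the non-clustered protocadherins, Pcdh10, Pcdh19, Pcdh11x and Pcdh7 had the higher Müller glial levels in Ptbp1-KO that are described below, Pcdh7 by just under 1.5-fold. The bases just upstream of Pcdh10, Pcdh19 and Pcdh7 are shown so that these genes can be compared. RefSeq (GRCm38.p6) gives the start of Pcdh10 on chromosome 3, of Pcdh19 on the reverse strand of chromosome X and of Pcdh7 on chromosome 5. The windows hold the 250 bases before the start at chr3:45378148-45378397, chrX:133688994-133689243 and chr5:57717831-57718080, read 5′ to 3′ on the strand of the gene, with matches to CCAAT on either strand in capitals.
Pcdh10: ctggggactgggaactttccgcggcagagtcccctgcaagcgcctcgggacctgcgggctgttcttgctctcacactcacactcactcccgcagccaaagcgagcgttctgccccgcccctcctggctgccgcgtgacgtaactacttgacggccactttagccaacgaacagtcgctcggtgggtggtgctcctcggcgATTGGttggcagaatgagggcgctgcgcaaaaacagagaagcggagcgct
Pcdh19: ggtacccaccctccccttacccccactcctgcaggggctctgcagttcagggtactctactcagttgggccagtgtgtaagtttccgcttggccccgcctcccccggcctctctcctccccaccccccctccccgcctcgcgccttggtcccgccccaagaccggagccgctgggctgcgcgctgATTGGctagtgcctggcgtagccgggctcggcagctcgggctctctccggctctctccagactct
Pcdh7: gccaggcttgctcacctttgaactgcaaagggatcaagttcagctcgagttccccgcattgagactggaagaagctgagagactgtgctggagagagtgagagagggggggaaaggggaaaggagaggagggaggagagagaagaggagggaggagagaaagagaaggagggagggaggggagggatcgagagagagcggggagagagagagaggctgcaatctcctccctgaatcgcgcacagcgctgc
The CCAAT match begins 50 bases before the start in Pcdh10 and 65 bases before it in Pcdh19, and both also hold 1 match to GGGCGG on either strand. The Pcdh7 window holds neither, and none of the 3 holds TATAAA on either strand. Searched on both strands, CCAAT was present in 33.8% of all 32851 windows of this length and in 14 of the 22 members that have a window. GGGCGG was present in 32.7% of all windows and in 9 of the 22 members, and TATAAA in 12.4% and 2 of 22. The G and C content was 63.2% for Pcdh10, 69.2% for Pcdh19 and 58.4% for Pcdh7, beside a median of 52.4% over all windows. Such matches describe the letters only.

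RNA of nearly all members was found. In Ptbp1-Ctrl 91 of the 92 had at least 1 UMI, and in Ptbp1-KO all 92 did. Levels are given as CPM, where the UMIs of a gene are divided by all UMIs of that cell type and library and multiplied by 1000000, and a ratio between libraries was read only where a gene had at least 50 UMIs over both libraries in that type. That minimum was met by 37 members in rods, 8 in cones, 65 in bipolar cells, 35 in amacrine cells and 37 in Müller glia. Over the 5 types 68 members met it at least once and 7 met it in every type. The 24 that never met it were 11 alpha, 1 beta and 4 gamma protocadherins, Pcdh12, Cdh1, Cdh3, Cdh5, Cdh15, Cdh17, Cdh19 and Cdh26. Cdh1 and Cdh3, the cadherins of pigment epithelium, had 21 and 28 UMIs in all cells together, and Cdh5 of endothelium had 16. In Müller glia Cdh1 was at 0 in both libraries and Cdh5 had 1 and 2 UMIs, although the endothelial list (Cldn5, Pecam1, Kdr, Flt1 and Egfl7) summed to 1524 and 1526 CPM there. The last exon was shared with another member for 13 of the 13 alpha genes matched to GENCODE M21, 21 of 21 gamma genes, 2 of 22 beta genes and none of the other 35. A 3′ read in a shared exon does not tell these genes apart, so the levels of single alpha and gamma genes are uncertain.

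Each cell type had its own set of cadherins, and the sets were alike in the libraries. Of 72 members with at least 50 UMIs over the 5 types, 50 had the same highest type in both libraries, and for 20 of these the 95% counting interval of that type lay above the intervals of the other 4 types in both. The 20 were divided into 1 gene highest in rods, 2 in cones, 7 in bipolar cells, 6 in amacrine cells and 4 in Müller glia. The values below are levels, and they are compared between cell types for 1 gene at a time. Highest and next types are named among these 5 types, without ganglion and horizontal cells.

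**Figure D1:**
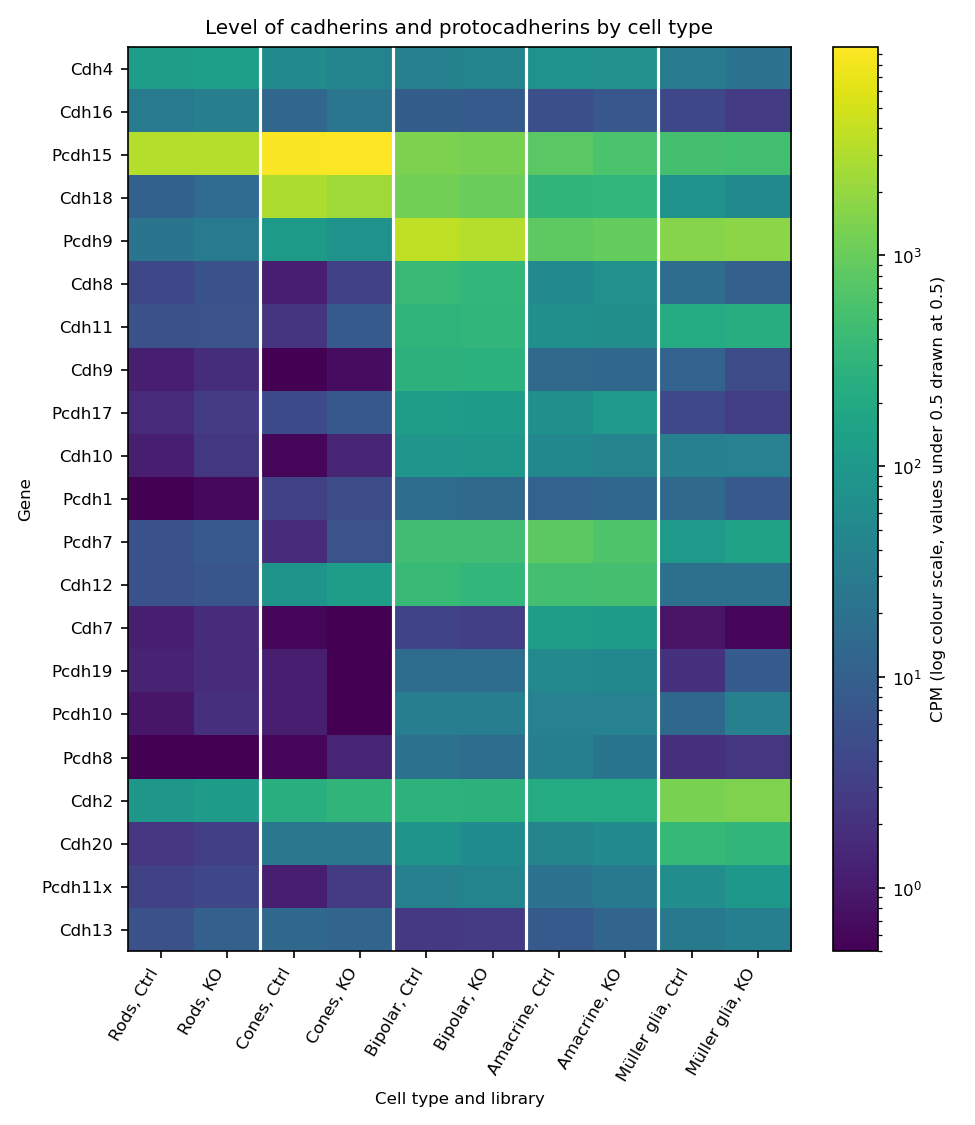
Level in CPM (colour, log scale) of the 21 members outside the clustered loci with at least 500 UMIs over the 5 cell types (rows), by cell type and library (columns, 1 library per genotype), ordered by the type that is highest in Ptbp1-Ctrl. Neighbouring Ctrl and KO columns look alike for most genes, and Pcdh10 and Pcdh19 in Müller glia are visible exceptions.

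Pcdh15 was the photoreceptor member. It stood at 9298 and 9702 CPM in Ptbp1-Ctrl and Ptbp1-KO in cones, which was 2.91 and 3.02 times its level in rods at 3193 and 3212 CPM. Bipolar cells had 1393 and 1271 CPM and amacrine cells 787 and 596 CPM. In Müller glia Pcdh15 was at 537 and 484 CPM, that is 16.8% and 15.1% of the rod level, beside 16.2% and 13.4% for the 4 rod genes. This match did not hold within the Müller glial clusters of the authors, since in cluster 22 Pcdh15 was at 1304 and 1497 CPM and Gnat1 at 538 and 439 CPM, against 431 and 382 CPM and 866 and 831 CPM in cluster 4. In bipolar cells Pcdh15 was at 43.6% and 39.6% of its rod level while the 4 rod genes were at 15.3% and 14.4%. In bipolar cluster 21 Pcdh15 was above its rod level, at 5314 and 4822 CPM. Cdh23, its tip-link partner, was scarce, with 7.59 and 8.69 CPM in rods and 9.31 and 12.8 CPM in Müller glia and under 10 UMIs per library in cones. Whether reads in introns were counted is not given in the sources used here, and the levels of long genes such as Pcdh15 and Pcdh9 may include them.

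Cdh18 was highest in cones, followed by bipolar cells. It had 2918 and 2377 CPM in cones, 1192 and 1002 CPM in bipolar cells and only 10.7 and 15.7 CPM in rods. Amacrine cells had it as well, with 453 and 456 CPM in cluster 6, the highest of their clusters. Cdh4, or R-cadherin, was highest in rods at 123 and 131 CPM, followed by amacrine cells at 79.7 and 73.6 CPM. Cdh16, which is best known from kidney epithelium, was highest in rods as well, at 28.8 and 34.6 CPM against 9.3 and 8.3 CPM in bipolar cells. In cones of Ptbp1-KO its interval overlapped that of rods. Cdh2, or N-cadherin, was present in rods at 94.5 and 115 CPM and in cones at 249 and 321 CPM.

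Müller glia were the type with the most Cdh2, at 1319.7 and 1440.5 CPM in Ptbp1-Ctrl and Ptbp1-KO, which was 4.49 and 4.48 times the next type. Cdh20, a type II cadherin, stood at 371 and 332 CPM there, beside 83.1 and 59.9 CPM in bipolar cells, and Cdh13, a cadherin with a lipid anchor in place of a transmembrane part, at 27.4 and 35.2 CPM. Pcdh11x had 63.7 and 98.3 CPM in Müller glia and 37 and 43.6 CPM in bipolar cells. Cdh11 and Pcdh9 were strong in Müller glia, at 221 and 234 CPM and at 1615 and 1749 CPM, but both were higher still in bipolar cells, at 310.0 and 333 CPM and at 3763 and 3259.6 CPM.

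Bipolar cells were highest for Cdh8, Cdh9, Cdh10, Cdh11, Pcdh9, Pcdh17 and Pcdhb19. Cdh9 was the most restricted of these, at 285 and 269.9 CPM beside 15.3 and 14 CPM in amacrine cells. Cdh8 had 400.3 and 342 CPM in bipolar cells and 55.7 and 74.4 CPM in amacrine cells, and Pcdh17 127 and 118 CPM and 72.1 and 99 CPM. A UMI of Cdh9 was found in 22.7% (21.3 to 24.2) of bipolar cells of Ptbp1-Ctrl and in 24.6% (23 to 26.4) of those of Ptbp1-KO, where the brackets give the exact 95% binomial interval. In rods, where Cdh9 was at 1.15 and 1.79 CPM, the shares were 0.149% (0.0835 to 0.246) and 0.28% (0.183 to 0.409), at median depths of 1088 and 1288 UMIs in rods and 2777 and 3818 UMIs in bipolar cells. When each cell was thinned to 1000 UMIs the shares were 15.1% and 14.8% in bipolar cells, with 125 and 42 shallower cells left out.

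Among the 5 types amacrine cells were highest for Cdh6, Cdh7, Cdh12, Cdh22, Pcdh7 and Pcdh19. Of the 5 types, Cdh7 was nearly absent outside amacrine cells, with 126 and 119 CPM there and 3.68 and 3.13 CPM in bipolar cells, the next type. A UMI of it was found in 24.3% (21.1 to 27.7) and 28.7% (25.8 to 31.7) of amacrine cells, against 0.139% (0.0761 to 0.233) and 0.258% (0.165 to 0.384) of rods. With each cell thinned to 1000 UMIs the amacrine shares were 10.2% and 10.7%, with 51 and 53 cells left out. Cdh22 had 23 and 30.8 CPM in amacrine cells and 5.25 and 6.1 CPM in Müller glia, and Cdh6 14.3 and 25.9 CPM in amacrine cells and 1.94 and 4.39 CPM in bipolar cells. Pcdh19 had 52.6 and 50.8 CPM in amacrine cells and 16.3 and 16.1 CPM in bipolar cells. Pcdh7 and Cdh12 were shared with bipolar cells, Pcdh7 at 794 and 633 CPM against 469 and 473 CPM, and Cdh12 at 508 and 523 CPM against 392 and 351 CPM.

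Whether loss of Ptbp1 altered these genes was asked next, by counting members whose level differed between the libraries by at least 1.5-fold. In Müller glia 7 of the 37 members with enough UMIs were higher in Ptbp1-KO and 3 were lower, where 4.64% and 3.11% of all genes with enough UMIs were. Rods had 10 of 37 higher and none lower, beside 8.95% and 1.37% of all genes. In bipolar cells 8 of 65 were higher and 2 lower, beside 3.53% and 2.07%, and in amacrine cells 4 of 35 were higher and 2 lower, beside 3.89% and 2.95%. Cones had 2 of 8 higher and none lower, beside 4.29% and 3.19%. Most of these members were thinly counted, and genes with few UMIs pass a fold threshold more often. Among genes with 50 to 199 UMIs, 9 of 28 members in rods were higher, beside 26.3% of all such genes, and in Müller glia 5 of 23 were, beside 9.83%. In bipolar cells 8 of 37 were, beside 10.8%, and in amacrine cells 4 of 20, beside 7.32%. Lower in that class were 3 of 23 in Müller glia, beside 6.60%, and 2 of 37 in bipolar cells, beside 5.74%. In amacrine cells 2 of 20 were lower, beside 5.61%, and in rods 0 of 28, beside 3.24%. The scarce members of rods were thus close to other genes of like counts. Members with at least 200 UMIs were higher by 1.5-fold in 4 cases. These were Cdh13 in rods, as 1 of 9, Cdh12 in cones, as 1 of 5, and Pcdh10 and Pcdh11x in Müller glia, as 2 of 14, beside 3.4%, 1.18% and 2.04% of all genes with that many UMIs. None of the 28 in bipolar cells or the 15 in amacrine cells passed, and none was lower by 1.5-fold in any of the 5 types.

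The median log2 ratio of Ptbp1-KO over Ptbp1-Ctrl over the members with enough UMIs was 0.34 in rods, where that of all genes was 0.07. It was 0.15 in Müller glia and 0.14 in amacrine cells, 0.02 in cones and -0.02 in bipolar cells, and the median of all genes was within 0.01 of 0 in Müller glia, amacrine cells and cones and 0.01 in bipolar cells. The Müller glial median was -0.04 when each cell was thinned to 1000 UMIs. Among genes with 50 to 199 UMIs the rod median was 0.41 for the 28 members and 0.30 for all genes. In the same class these medians were 0.24 and 0.04 in Müller glia and 0.23 and 0.02 in amacrine cells. They were 0.15 and 0.06 in bipolar cells and -0.03 and 0.02 in cones. Counting all members together, their RNA made up 12904 and 12868 CPM in cones, nearly all of it Pcdh15 and Cdh18, 9313 and 8412 CPM in bipolar cells, 4719 and 5019.5 CPM in Müller glia, 4502 and 4375 CPM in amacrine cells, and 3609 and 3716 CPM in rods.

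**Figure D2:**
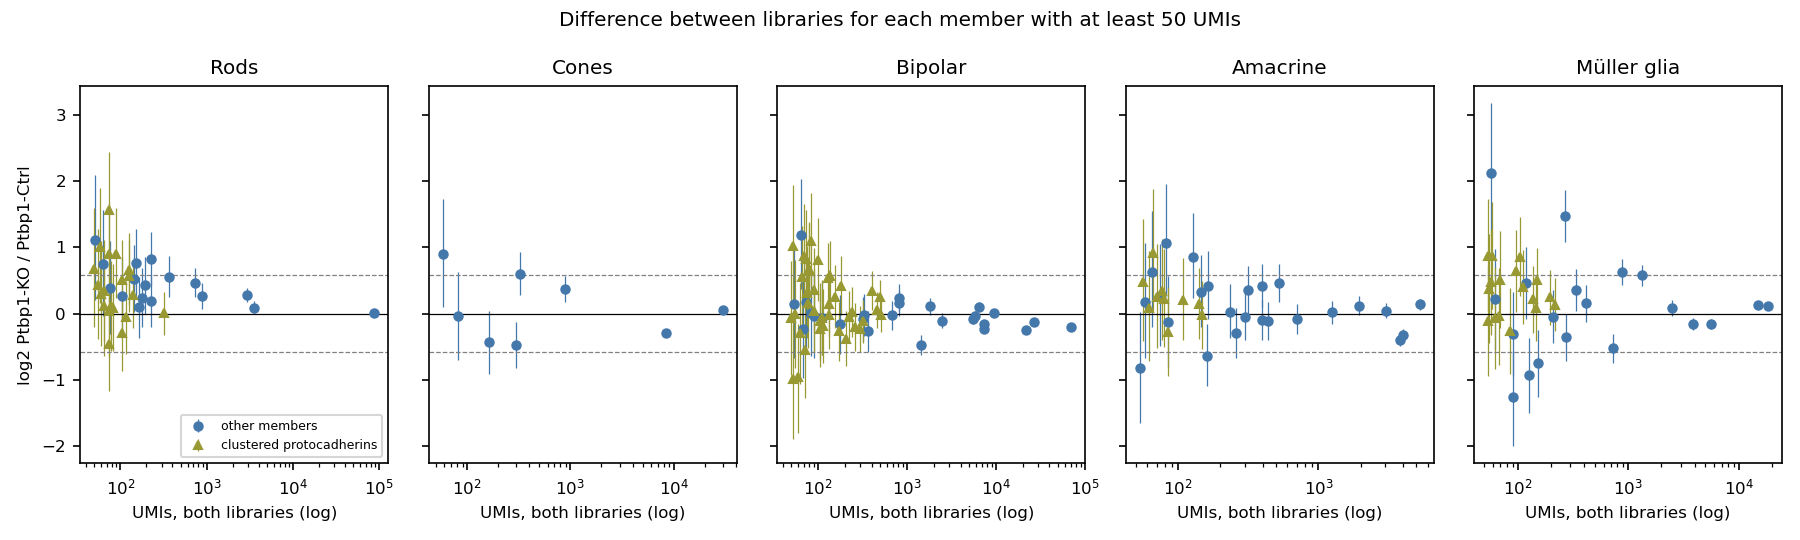
Log2 ratio of Ptbp1-KO over Ptbp1-Ctrl (vertical axis) against the UMIs over both libraries (horizontal, log scale) for each member with at least 50 UMIs, by cell type. Bars are exact 95% intervals for counting error only, circles are members outside the clustered loci, triangles are clustered protocadherins, and dashed lines mark 1.5-fold. Well-counted members lie near 0, and in Müller glia Pcdh10, at 1.47 with 268 UMIs, stands above the others of its depth.

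In Müller glia the largest log2 ratios belonged to delta-protocadherins. Pcdh10 (chromosome 3, 45378398 to 45435623, strand +) had 79 and 189 UMIs in Ptbp1-Ctrl and Ptbp1-KO, or 13.4 and 37.2 CPM, a log2 ratio of 1.47 (1.09 to 1.87). Pcdh19 (chromosome X, 133582860 to 133688987, strand -), a gene known for an X-linked epilepsy, had 12 and 45 UMIs, or 2.03 and 8.85 CPM, a log2 ratio of 2.12 (1.18 to 3.18). Both were lower in Ptbp1-Ctrl with no overlap of the 95% intervals. In the neurons that express them they hardly differed: Pcdh10 had 39.4 and 40.2 CPM in amacrine cells and 34.3 and 33.7 CPM in bipolar cells, and Pcdh19 52.6 and 50.8 CPM and 16.3 and 16.1 CPM. The Müller glial level of Pcdh10 in Ptbp1-KO thus reached that of amacrine cells, while that of Pcdh19 stayed under it.

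The share of Müller glia with a UMI of Pcdh10 was 4.3% (3.39 to 5.37) in Ptbp1-Ctrl and 12.8% (11 to 14.9) in Ptbp1-KO. In rods, where Pcdh10 was near 0, it was 0.119% (0.0617 to 0.208) and 0.301% (0.20 to 0.435). For Pcdh19 the Müller glial shares were 0.698% (0.361 to 1.22) and 3.29% (2.35 to 4.48), and the rod shares 0.159% (0.091 to 0.258) and 0.247% (0.157 to 0.371). With each cell thinned to 1000 UMIs, which left out 57 and 11 Müller glia, Pcdh10 was found in 0.962% and 2.98% of them and Pcdh19 in 0.18% and 0.938%. The most UMIs in 1 Müller glial cell were 2 and 4 for Pcdh10 and 1 and 3 for Pcdh19.

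**Figure D3:**
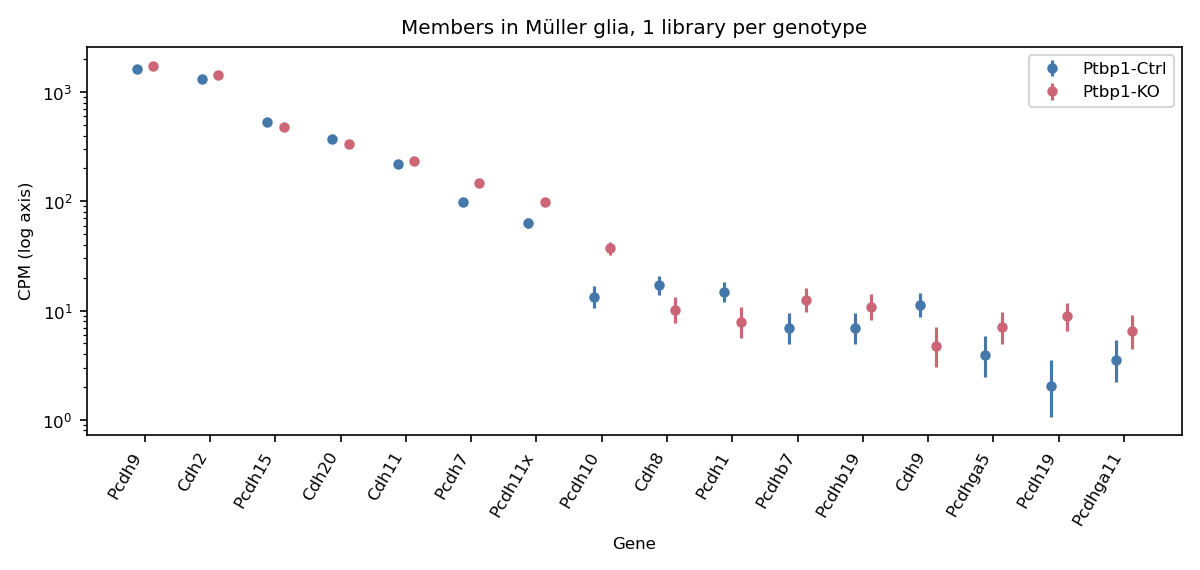
Level in CPM (log axis) in Müller glia of the 5 members with the most UMIs, of all members past 1.5-fold, and of Pcdh7, with 1 point per library and exact Poisson 95% intervals. Pcdh10 and Pcdh19 are higher in Ptbp1-KO with intervals clear of each other, and Cdh2 and Pcdh9 lie close together.

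A further delta-protocadherin, Pcdh11x (chromosome X, 120290259 to 120910619, strand +), had 63.7 and 98.3 CPM in Müller glia, a log2 ratio of 0.63 (0.43 to 0.82), and Pcdh7, at 99.2 and 148 CPM and 0.58 (0.42 to 0.74), was just under 1.5-fold. With cells thinned to 1000 UMIs Pcdh11x was at 0.42, also under it. Pcdh11x and Pcdh19 lie on chromosome X, on which 29 of 417 genes with enough UMIs in Müller glia, or 6.95%, were higher in Ptbp1-KO by 1.5-fold. As a sum, the 5 delta-2 protocadherins had 30.8 and 58.8 CPM, a log2 ratio of 0.93 (0.66 to 1.21), and of the 3 with enough UMIs Pcdh18 alone was not higher, at 8.97 and 7.28 CPM. The delta-1 protocadherin Pcdh1 was lower in Ptbp1-KO, at 14.9 and 7.87 CPM, a log2 ratio of -0.92 (-1.50 to -0.37), while Pcdh9, the member of that group with the most UMIs, was at 0.12 (0.07 to 0.16).

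The main Müller glial cluster of the authors, number 4, held 1386 and 994 cells. There Pcdh10 was at 12.2 and 39 CPM with a log2 ratio of 1.68 (1.25 to 2.13), Pcdh19 at 1.6 and 9.19 CPM and 2.53 (1.41 to 3.83), and Pcdh1 at 14.8 and 6.5 CPM and -1.18 (-1.86 to -0.55). In cluster 22 Pcdh10 was at 22.9 and 21.4 CPM and -0.10 (-1.59 to 1.32), from 12 and 8 UMIs. Pcdh19 had 4 and 4 UMIs in cluster 22 and 0 and 0 in cluster 16, and Pcdh1 had 5 and 6 and 9 and 5. Pcdh10 had 6 and 7 UMIs in cluster 16. Outside cluster 4 these genes were thus thinly counted, and their differences rest on cluster 4. Pcdh11x was at 64.3 and 98.9 CPM and 0.62 (0.41 to 0.83) in cluster 4, at 38.2 and 96.4 CPM and 1.34 (0.51 to 2.20) in cluster 22, and even in cluster 16 at -0.01 (-0.84 to 0.80). Pcdh7 was higher in Ptbp1-KO in clusters 4 and 16, at 0.71 (0.52 to 0.90) and 1.66 (1.05 to 2.31), but not in cluster 22, at -0.01 (-0.36 to 0.34). Cluster 22, with 89 and 54 cells, differed in kind: it carried bipolar markers, with Trpm1 at 752 and 862 CPM against 15.8 and 22.2 CPM in cluster 4, beside glial Apoe at 5317 and 5202 CPM.

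Cdh8 and Cdh9, the type II cadherins of cone bipolar cells, were lower in Müller glia of Ptbp1-KO, Cdh8 at 17.1 and 10.2 CPM with -0.74 (-1.25 to -0.25) and Cdh9 at 11.3 and 4.72 CPM with -1.27 (-2.0 to -0.57). Nearly all of the Cdh9 UMIs lay in cluster 22, 64 of 67 in Ptbp1-Ctrl and 21 of 24 in Ptbp1-KO. In cluster 4 Cdh9 had 3 and 3 UMIs and Cdh8 had 18 and 16, and in cluster 16 they had 0 and 0 and 0 and 3. Without cluster 22 both genes were thus under the minimum of UMIs set for reading a ratio. Their log2 ratios were then 0.27 for Cdh8 and 0.19 for Cdh9, and the sign of these values cannot be read. Over all Müller glia the bipolar marker list summed to 911 and 1005 CPM, with none of its 8 genes at 0, the amacrine list to 558 and 644 CPM with none of 6 at 0, and the astrocyte list to 38.3 and 48.6 CPM with none of 4 at 0. Without cluster 22 Pcdh10 was at 1.63, Pcdh19 at 2.55 and Pcdh1 at -1.10 on the log2 scale, each farther from 0, and Pcdh11x at 0.57, just under 1.5-fold. With the bipolar profile of the same library subtracted Pcdh10 was at 1.60 and Pcdh19 at 2.69, and with the rod profile, scaled by the 4 rod genes, subtracted they were at 1.43 and 2.20.

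The classical cadherins that are strongest in Müller glia differed little. Cdh2 had a log2 ratio of 0.13 (0.08 to 0.17), Cdh20 of -0.16 (-0.25 to -0.07) and Cdh11 of 0.08 (-0.03 to 0.20), and all 3 were far inside 1.5-fold. The other members past 1.5-fold in Müller glia were clustered protocadherins with few UMIs, all higher in Ptbp1-KO: Pcdhb7 at 6.94 and 12.6 CPM, Pcdhb19 at 6.94 and 10.8 CPM, Pcdhga5 at 3.89 and 7.08 CPM and Pcdhga11 at 3.56 and 6.49 CPM. Their intervals reached down to between 0.03 and 0.27 on the log2 scale.

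In rods the 10 members past 1.5-fold were all higher in Ptbp1-KO and all scarce. Cdh13 was the best counted, at 5.83 and 10.3 CPM from 76 and 149 UMIs, a log2 ratio of 0.82 (0.41 to 1.24). Cdh24, a type II cadherin, had 3.99 and 6.76 CPM and 0.76 (0.26 to 1.28), Cdh10 had 1.15 and 2.48 CPM and 1.11 (0.21 to 2.09), and Pcdh17 had 1.69 and 2.83 CPM and 0.75 (-0.04 to 1.56), an interval that reaches below 0. The other 6 were the clustered protocadherins Pcdhb20, Pcdhga2, Pcdhga10, Pcdhgb5, Pcdhgb6 and Pcdhgc4, of which Pcdhgb6 differed most, at 1.3 and 3.86 CPM and 1.57 (0.76 to 2.44). With TMM factors, an alternative scaling of the libraries, Pcdhb20, at 0.57, and Pcdhga10, at 0.58, were just under 1.5-fold. Of the members with the most UMIs in rods, Pcdh15 was at 0.01 (-0.01 to 0.03) and Cdh4 at 0.09 (-0.01 to 0.19), both with intervals that include 0. Cdh2, at 0.28 (0.18 to 0.39), Pcdh9, at 0.47 (0.25 to 0.69), and Cdh16, at 0.26 (0.07 to 0.46), were higher in Ptbp1-KO by less than 1.5-fold. Bipolar and amacrine markers were also higher in rods of Ptbp1-KO, where the bipolar list summed to 1198 and 1361 CPM with none of 8 genes at 0, and the amacrine list to 58.8 and 74.1 CPM with none of 6 at 0. After subtraction of the bipolar, amacrine and Müller glial profiles, Cdh13 was at 0.84 and Cdh24 at 0.77 on the log2 scale. No ratio could be formed for Cdh10, Pcdh17 and Pcdh9 after it.

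Cones had Cdh12 higher in Ptbp1-KO, at 83.7 and 127 CPM and 0.60 (0.28 to 0.93), and Cdh16, at 13.2 and 24.6 CPM from 23 and 35 UMIs and 0.90 (0.10 to 1.72). The members with the most UMIs in cones were Pcdh15, at 0.06 (0.03 to 0.09), Cdh18, lower in Ptbp1-KO at -0.30 (-0.36 to -0.23), Cdh2, higher at 0.37 (0.18 to 0.56), and Pcdh9, lower at -0.47 (-0.82 to -0.12). None of these 4 reached 1.5-fold. The 4 rod genes were in cones at 24.3% and 23.6% of their level in rods, and with the rod profile subtracted by them Cdh12 was at 0.60 and Cdh16 at 1.39 on the log2 scale. With TMM factors Cdh12 was at 0.57, just under 1.5-fold.

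The members with the highest levels in bipolar cells differed by less than 1.5-fold between the libraries. Pcdh9 had a log2 ratio of -0.21 (-0.23 to -0.19), Pcdh15 of -0.13 (-0.17 to -0.10), Cdh18 of -0.25 (-0.29 to -0.21), Cdh12 of -0.16 (-0.22 to -0.09) and Pcdh7 of 0.01 (-0.05 to 0.07). With every cluster given the same weight in both libraries Pcdh9 was at -0.02 and Cdh18 at -0.04. Of the 10 members past 1.5-fold, Cdh6 was the only one outside the clustered loci, at 1.94 and 4.39 CPM from 19 and 45 UMIs and 1.18 (0.38 to 2.04). Higher in Ptbp1-KO were also Pcdhb10, Pcdhga3, Pcdhga7, Pcdhga11, Pcdhgb5, Pcdhgb6 and Pcdhgc3, with levels from 1.74 to 3.58 CPM in Ptbp1-Ctrl, and lower were Pcdhga10, at 3.98 and 2.05 CPM, and Pcdhgb7, at 3.47 and 1.76 CPM. With cells thinned to 1000 UMIs 5 of these 10 stayed past 1.5-fold. The 5 that did not were Pcdhb10, at 0.09, Pcdhga3, at 0.46, Pcdhga7, at 0.40, Pcdhgb7, at -0.19, and Pcdhgb6, which turned to -0.12. With an equal cluster mix 8 of 10 stayed, without Pcdhb10 and Pcdhgc3.

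In amacrine cells Cdh6, Cdh13, Cdh24 and Pcdhb21 were higher in Ptbp1-KO. Cdh6 had 14.3 and 25.9 CPM and 0.86 (0.24 to 1.52), and Cdh24 8.18 and 17.1 CPM and 1.06 (0.26 to 1.95), so that Cdh24 was higher in both rods and amacrine cells, and Cdh6 in both bipolar and amacrine cells. Cdh13 had 8.18 and 12.7 CPM and 0.64 (-0.20 to 1.55), an interval that includes 0, and Pcdhb21 7.16 and 13.5 CPM and 0.91 (0.04 to 1.88). The delta-2 protocadherins Pcdh8 and Pcdh18 were lower, Pcdh8 at 35.8 and 23.1 CPM and -0.63 (-1.10 to -0.16), and Pcdh18 at 12.8 and 7.26 CPM and -0.82 (-1.65 to 0.02). Cdh13, Cdh6 and Pcdhb21 fell under 1.5-fold with cells thinned to 1000 UMIs, at 0.49, 0.29 and 0.22, so that 3 of the 6 stayed. With an equal cluster mix 4 of 6 stayed, without Cdh13, at 0.56, and Pcdh8, at -0.42. Among the members with the most UMIs, Pcdh7 was lower at -0.33 (-0.42 to -0.24) and Pcdh15 at -0.40 (-0.50 to -0.31), and Pcdh9, Cdh12 and Cdh18 were at 0.14 (0.06 to 0.23), 0.04 (-0.07 to 0.15) and 0.12 (-0.02 to 0.26). The Pcdh15 level of amacrine cells was 24.7% and 18.5% of that in rods, against 17.7% and 17.2% for the 4 rod genes, and with the rod profile subtracted by these genes its log2 ratio was -2.38.

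The 10 bipolar clusters of the authors were next compared for the members that set them apart. Because the clusters were made from all genes of these cells, these levels describe the clusters and were not tested. Clusters 5 and 10 carried the rod bipolar genes Prkca (at 7011 and 6644 CPM in cluster 5), Sebox and Car8, and nearly lacked the cadherins of the other clusters. In cluster 5 Cdh8 was at 2.84 and 2.36 CPM, Cdh9 at 1.22 and 1.35 CPM, Pcdh7 at 3.25 and 3.03 CPM, Pcdh17 at 0.813 and 2.02 CPM and Pcdh10 at 0.406 and 1.35 CPM. It retained Cdh12, at 495 and 450.4 CPM, Pcdh15, at 449.5 and 365 CPM, and Cdh2, at 264 and 245 CPM.

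Cdh8 or Cdh9 was high in 6 of the 8 remaining clusters. Cdh8 (chromosome 8, 99024471 to 99416471, strand -) was at 1377 and 1416 CPM in cluster 9 and 1175 and 1359 CPM in cluster 11, at 439.8 and 337 CPM in cluster 21, and under 100 CPM in every other cluster. Cdh9 (chromosome 15, 16728756 to 16857094, strand +) was at 1427 and 1254 CPM in cluster 19, 1093 and 1065 CPM in cluster 12 and 1189 and 704 CPM in cluster 20, where Cdh8 stood between 10.4 and 53.9 CPM. In cluster 11 Cdh9 was at 17.1 and 26.5 CPM. Clusters 13 and 18 were high for neither, with Cdh9 at 102 and 85.1 CPM and 14.9 and 15.1 CPM. In cluster 9 Cdh9 was at 138 and 165 CPM, and no cluster reached 200 CPM for both genes in either library.

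**Figure D4:**
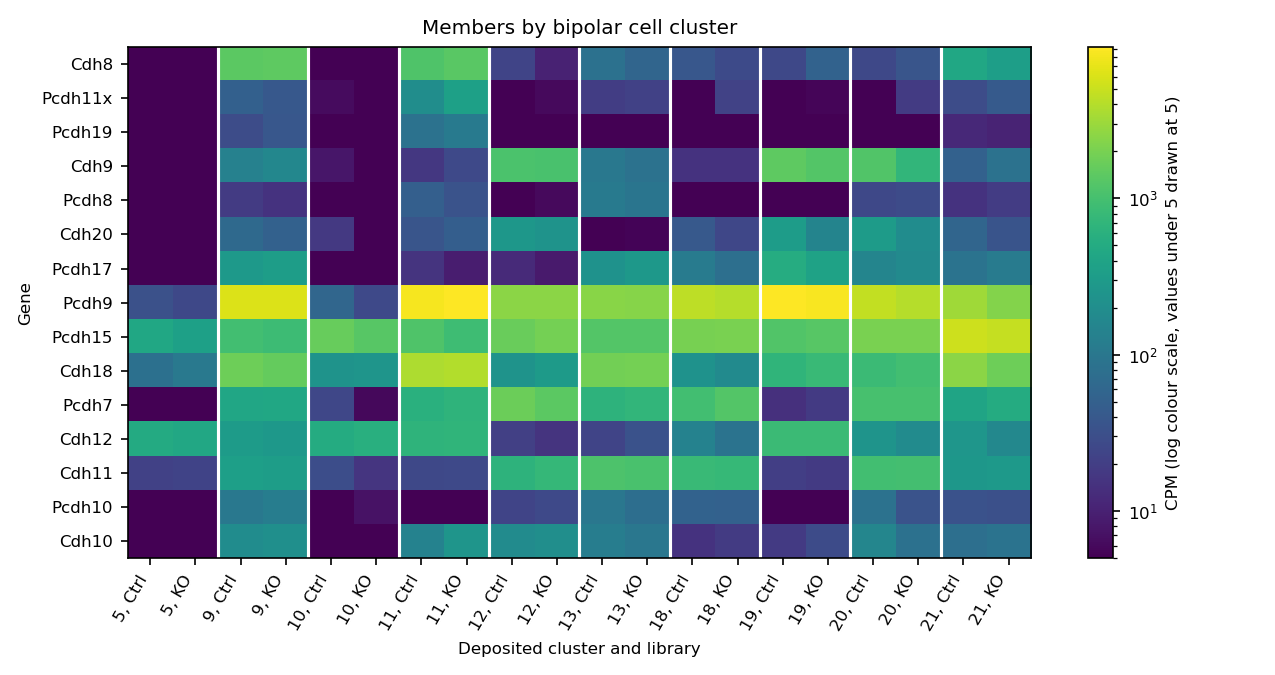
Level in CPM (colour, log scale) of 15 members (rows) in the 10 bipolar clusters of each library (columns). Clusters 5 and 10 are dark for most members, Cdh8 is bright in 9 and 11 and Cdh9 in 12, 19 and 20, in Ptbp1-Ctrl and in Ptbp1-KO.

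Protocadherins marked single clusters within this division. Pcdh11x was highest in cluster 11, at 202 and 359 CPM, followed by cluster 9 at 50.4 and 39.9 CPM, and Pcdh19 took the same order, at 85.4 and 112 CPM and 28.8 and 38.5 CPM. In cluster 11 Pcdh11x had a log2 ratio of 0.83 (0.58 to 1.08). Pcdh8 was highest in cluster 13, at 110.1 and 93.6 CPM, and Pcdh17 in cluster 19, at 533 and 380.1 CPM, with clusters 9 and 13 at 289 and 335 CPM and 233 and 281 CPM. Cdh20 followed Cdh9, at 323 and 151 CPM in cluster 19, 307 and 194 CPM in cluster 20 and 271 and 239 CPM in cluster 12. Its highest cluster was 19 in Ptbp1-Ctrl and 12 in Ptbp1-KO, and in cluster 19 its log2 ratio was -1.10 (-1.44 to -0.77). The other 6 of these 7 genes kept their highest cluster.

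Other members ran across the Cdh8 and Cdh9 clusters. Cdh11 was high in clusters 13, 20, 18 and 12, at 1133 and 1078 CPM in the first of these, and low in clusters 11 and 19, at 25.6 and 26.5 CPM and 20.4 and 18 CPM. Pcdh7 was at 1723 and 1391 CPM in cluster 12 and at 14 and 18 CPM in cluster 19, although both clusters carry Cdh9. Cdh12 was the reverse, with 853 and 846 CPM in cluster 19 and 21 and 15.6 CPM in cluster 12. Cdh18 was highest in cluster 11 at 3682 and 3859 CPM, Pcdh15 in cluster 21 at 5314 and 4822 CPM, and Pcdh9 exceeded 2000 CPM in all clusters other than 5 and 10.

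Amacrine cells fell into 3 clusters. Cluster 6 carried the GABAergic genes Gad1 (at 479 and 536 CPM) and Gad2, and clusters 14 and 15 carried the glycine transporter gene Slc6a9, at 1028 and 1289 CPM and at 864 and 918 CPM. Cluster 6 was the highest for Pcdh7, at 1768 and 1232 CPM against 34.3 and 27.9 CPM in cluster 14 and 57.6 and 46.5 CPM in cluster 15. It was likewise highest for Pcdh10, at 84.5 and 77.5 CPM, Pcdh11x, at 45.8 and 51 CPM, Cdh10, at 106 and 76.5 CPM, Cdh4, at 155 and 120.2 CPM, and Cdh6, at 29.3 and 44.2 CPM. Each of these 6 had the same highest cluster in both libraries. Cdh12 went the other way, with 1179 and 1147 CPM in cluster 15, 454 and 500.3 CPM in cluster 14 and 208 and 221 CPM in cluster 6. Cdh7 had 163 and 179.9 CPM in cluster 14, 198 and 152 CPM in cluster 15 and 61 and 71.3 CPM in cluster 6.

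**Figure D5:**
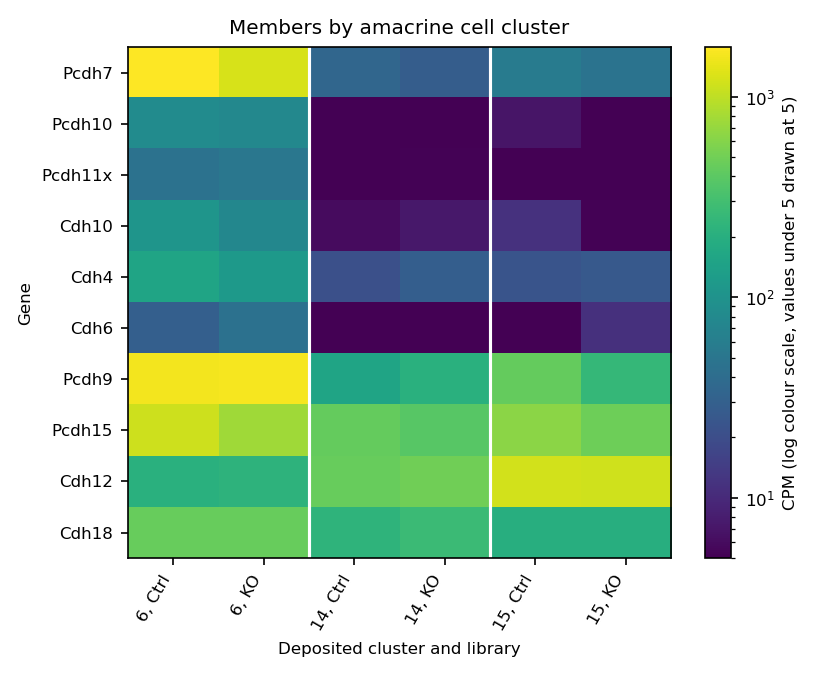
Level in CPM (colour, log scale) of members (rows) in the 3 amacrine clusters of each library (columns). Cluster 6 is brightest for Pcdh7, Pcdh10, Pcdh11x, Cdh10, Cdh4 and Cdh6, and cluster 15 for Cdh12.

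The differences of amacrine cells between the libraries were spread over clusters. Pcdh7 was lower in Ptbp1-KO in cluster 6, at a log2 ratio of -0.52 (-0.61 to -0.43). With each cluster given the same weight in both libraries, in proportion to its pooled UMIs, Pcdh7 was at -0.51 over all amacrine cells. Cluster 6 held 293 of 676 amacrine cells in Ptbp1-Ctrl and 478 of 945 in Ptbp1-KO. Cdh6 was higher in cluster 6 at 0.59 (-0.07 to 1.30), and Cdh24 at 0.83 (-0.04 to 1.79), both with intervals that include 0. Pcdh9 was lower in cluster 15, at 445 and 248 CPM and -0.84 (-1.12 to -0.56), although it was at 0.04 (-0.05 to 0.14) in cluster 6 and 0.41 (0.06 to 0.77) in cluster 14. Cdh8 was higher in cluster 14, at 22.4 and 74.4 CPM and 1.73 (0.92 to 2.64), and in cluster 15, at 20.7 and 47.5 CPM and 1.20 (0.15 to 2.41), and not in cluster 6, at -0.18 (-0.57 to 0.21). Bipolar markers in amacrine cells summed to 874 and 855 CPM, with none of 8 genes at 0. Their part in the Cdh8 values was not tested.

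Clustered protocadherins were best read as sums over a cluster of genes, since single alpha and gamma genes are uncertain. The 22 beta genes had their most RNA in bipolar and amacrine cells, at 213 and 231 CPM, 0.12 (0.03 to 0.20) on the log2 scale in bipolar cells and 193 and 212 CPM, 0.14 (-0.04 to 0.32) in amacrine cells. Müller glia had 142 and 170.3 CPM, 0.26 (0.12 to 0.40), rods 30.0 and 33.4 CPM, 0.16 (-0.04 to 0.35), and cones 51.6 and 49.8 CPM, -0.05 (-0.52 to 0.41). The 21 gamma genes were at 80.8 and 86.4 CPM, 0.10 (-0.04 to 0.24) in bipolar cells, 61.8 and 83 CPM, 0.42 (0.12 to 0.74) in amacrine cells, 55 and 71 CPM, 0.37 (0.15 to 0.59) in Müller glia and 48.5 and 61.5 CPM, 0.34 (0.19 to 0.49) in rods. Alpha genes were the scarcest, at 25 and 26.5 CPM, 0.08 (-0.17 to 0.34) in bipolar cells and 1.86 and 2.56 CPM, 0.46 (-0.82 to 1.76) in Müller glia from 11 and 13 UMIs. No alpha, beta or gamma sum reached 1.5-fold except that of the alpha genes in rods and in cones, from 19 and 38 UMIs and from 17 and 22 UMIs. The gamma intervals lay above 0 in rods, amacrine cells and Müller glia, included 0 in bipolar cells, and also in cones, where the sum was at 43 and 36.5 CPM, -0.24 (-0.78 to 0.29).

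The partners of cadherins inside the cell were read from fixed lists. Of 11 catenin genes all had enough UMIs in Müller glia, where Jup, or plakoglobin, was higher at 14.6 and 22.4 CPM, 0.62 (0.21 to 1.04), and Ctnna2 lower at 49.3 and 31.5 CPM, -0.65 (-0.93 to -0.36). The median log2 ratio of the list there was 0.12. In bipolar cells Ctnna3, an alpha-catenin, was lower, at 87.4 and 43.5 CPM, -1.01 (-1.18 to -0.84) from 856 and 445 UMIs, and Jup higher at 2.86 and 4.69 CPM, 0.71 (0.01 to 1.44). Rods had Ctnna3 higher, at 10.1 and 15.9 CPM, 0.65 (0.33 to 0.97), as well as Ctnnd2, at 6.9 and 12.1 CPM, 0.81 (0.44 to 1.20), and Jup, at 2.45 and 3.79 CPM, 0.63 (-0.03 to 1.30), and no catenin passed 1.5-fold in cones, out of 7, or in amacrine cells, out of 9. That is 1 of 11 higher and 1 lower in Müller glia, beside 4.64% and 3.11% of all genes, 1 higher and 1 lower in bipolar cells, beside 3.53% and 2.07%, and 3 of 11 higher in rods, beside 8.95%.

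Of the 20 genes with cadherin repeats outside the naming rule, 9 had enough UMIs in Müller glia and Clstn2, a calsyntenin of synapses, was higher at 5.08 and 18.9 CPM, 1.89 (1.29 to 2.54). Clstn2 was also higher in amacrine cells, at 16.9 and 29.8 CPM, 0.82 (0.25 to 1.43), as 1 of 9, and in rods, at 3.3 and 5.59 CPM, 0.76 (0.21 to 1.33). The other 2 of 8 that were higher in rods were Fat3, at 4.14 and 6.9 CPM, 0.74 (0.24 to 1.24), and Dchs2, at 0.844 and 3.1 CPM, 1.88 (0.91 to 2.98). All 3 rod genes had 50 to 199 UMIs, a class in which 26.3% of all rod genes were higher. Celsr2 was the only other listed gene of that class in rods, and it did not pass, at 0.12 (-0.46 to 0.70). Over all genes 8.95% were higher in rods, 4.64% in Müller glia and 3.89% in amacrine cells. None passed in bipolar cells, out of 8, or in cones, out of 4. In the WAVE complex list 9 of 11 genes had enough UMIs in each type and only Cyfip1 in amacrine cells passed, at 21 and 32.9 CPM, 0.65 (0.13 to 1.20). In the list of Usher complex partners 3 to 5 of 9 genes had enough UMIs, and only Cib2 in amacrine cells passed, at 17.4 and 28.3 CPM, 0.70 (0.13 to 1.30).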

How the data were processed

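Retinas were dissociated with papain and captured with the 10x Genomics 3′ version 3.1 chemistry. The deposited file holds UMI counts per gene and cell that the authors made with Cell Ranger 7.0.1 and Seurat 4 on mm10, per the labels, together with their cell types and clusters. Cells had already been filtered by the authors on genes, UMIs and mitochondrial share. The annotation and the treatment of intronic reads are not given in the sources used here. The values were checked to be whole counts that sum to the deposited total in all 30943 cells, and 2 other columns of values per cell were not used. No doublet caller was run on the main values, and the 5% of cells per library with the highest nearest-neighbour doublet score were left out as an alternative.

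Counts were summed per library and cell type and scaled to CPM. Levels carry exact Poisson intervals, ratios exact conditional binomial intervals and shares of cells exact Clopper-Pearson intervals, all at 95% and for counting error only. Ratios of genes with at least 50 UMIs over both libraries were called at 1.5-fold, with no test. Genes described singly were those past 1.5-fold, the 5 with the highest mean CPM of each type, and members whose highest bipolar or amacrine cluster held at least 100 UMIs and at least 5 times the median of the clusters. Cdh1, Cdh3, Cdh5, Cdh23 and Pcdh15 were also described. Other genes, such as Pcdh7 in Müller glia and Cdh11 in bipolar clusters, were chosen after their values were seen. The members and gene lists were chosen with earlier results of these data known. The interval and ratio code was tested on simulated data. Analyses used Python 3.11.15, numpy 2.4.6, scipy 1.17.1, pandas 2.3.3, scikit-learn 1.9.0 and matplotlib 3.10.9, with edgeR 4.0.16 in R 4.3.3 for the alternative TMM scaling only. Gene positions are those of GENCODE M21 (GRCm38). Some marker genes are not reported here.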

Additional observations from a re-analysis of the deposited data

Results flagged for a closer look

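The log2 ratio of Cdh12, Ptbp1-KO over Ptbp1-Ctrl, was 0.60 in cones and -0.16 in bipolar cells, with 95% counting intervals on opposite sides of 0. For Cdh8 the log2 ratio was 0.53 in rods and 0.42 in amacrine cells but -0.74 in Müller glia. In Müller glia 83 UMIs of Cdh8 in Ptbp1-Ctrl and 33 in Ptbp1-KO lay in cluster 22, which carried bipolar markers. The Müller glial value changed sign when that cluster, or cells of high doublet score, were left out. Without that cluster Cdh8 was under the minimum of UMIs set for reading a ratio, so its sign there cannot be read. With 1 library per genotype neither difference between cell types was tested.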

How the results depend on the processing

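Over the alternatives run, the median log2 ratio of the members ranged from 0.25 to 0.40 in rods and from 0.02 to 0.22 in amacrine cells. It crossed 0 in the other types, ranging from -0.04 (cells thinned) to 0.22 in Müller glia, from -0.02 to 0.28 in cones and from -0.06 to 0.03 in bipolar cells. The number of members past 1.5-fold depended most on the minimum of UMIs and on the fold. In rods, 10 under the settings used, it was 1 with a minimum of 200 UMIs, 2 at 2-fold, and 17 with cells thinned to 1000 UMIs, of which 15 were higher and 2 lower. In cones, from 2, it was 1 with TMM factors, 6 with a minimum of 20 UMIs, 1 with a minimum of 200 and 0 at 2-fold. Bipolar cells went from 10 to 0 with a minimum of 200 UMIs and to 3 at 2-fold, and amacrine cells from 6 to 15 with a minimum of 20, to 0 with 200 and to 1 at 2-fold. Müller glia went from 10 to 27 with a minimum of 20 UMIs (18 higher and 9 lower), to 2 with 200 and to 3 at 2-fold. Except at the minimum of 200 UMIs, the share of all genes was not computed under these alternatives. The counts under them thus describe the settings, and nothing particular to the members can be read from them. Of 438 recomputed log2 ratios of 62 single members and types, 42 moved and 4 changed sign: Pcdhgb6 in bipolar cells with cells thinned (-0.12), Cdh8 in Müller glia with cells of high doublet score left out (0.12) and without cluster 22 (0.27), and Cdh9 in Müller glia without cluster 22 (0.19). The cause of these changes was not tested. Without cluster 22 Cdh8 and Cdh9 had fewer than 50 UMIs over both libraries in Müller glia, so their signs cannot be read. Of the 10 Müller glial members past 1.5-fold, 7 stayed past it with cells thinned, 7 with cells of high doublet score left out and 7 without cluster 22. Pcdh11x in Müller glia was at 0.42 with cells thinned, at 0.56 with cells of high doublet score left out and at 0.58 with the rod profile subtracted. That subtraction, scaled by 4 rod genes, took Pcdh15 in Müller glia to 1.31. Leaving out cluster 22, giving each cluster the same weight in both libraries in Müller glia and rods, and subtracting bipolar, amacrine or glial profiles, or that of rods by 4 genes, were chosen after seeing the data. No paired analysis was possible because there is 1 library per genotype, and no library could be left out for the same reason. Genes with few UMIs limit the precision, with 24 of 92 members under 50 UMIs in every type.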

Other observations

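Retinal ganglion cells (124 and 97 cells) and horizontal cells (17 and 7 cells) were too few for the comparison between libraries, but their members can be described. In cells labelled as ganglion cells Pcdh10 was at 155 and 174 CPM in Ptbp1-Ctrl and Ptbp1-KO, Pcdh8 at 103 and 136 CPM and Pcdh19 at 108 and 98 CPM, from 18 to 33 UMIs per library. These cells carried the rod marker list at 18902 and 22994 CPM, beside 29648 and 26348 CPM in rods. Their ganglion cell marker list summed to 3074 and 2162 CPM, so the levels belong to the label and not to ganglion cells alone. In horizontal cells Cdh4 was at 632 and 770.1 CPM from 70 and 33 UMIs, and Pcdh17 at 271 and 303 CPM from 30 and 13 UMIs.

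Cdh19 in Müller glia, chosen after its values were seen, had 5 and 27 UMIs, or 0.847 and 5.31 CPM, and so stayed under the minimum of 50 UMIs.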
